A study of Glycine max with 18 samples.

Results

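Phytate, the inositol hexakisphosphate salt in which seeds store phosphorus, was followed through 5 soybean (Glycine max) genes of its synthesis and storage, out of 51546 gene identifiers in the files. They are the inositol phosphate synthase gene MIPS1 (Glyma.11G238800) and its copy on chromosome 18 (Glyma.18G018600), the kinase gene IPK1 (Glyma.14G072200), and the transporter genes of the MRP type on chromosome 3 (Glyma.03G167800) and chromosome 19 (Glyma.19G169000). They were chosen by identifier for their known roles and not by their values, although earlier results of these data were known at that point. All 5 were found in every library and passed the filter on low values. The files hold identifiers without names, so the names come from the choice of the gene set. A RefSeq gene table lists MIPS (synonym GmMIPS1) on chromosome 11 and IPK1 on chromosome 14, the chromosomes that these identifiers carry, but pairs none of the identifiers with a name.

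Phytate synthesis begins with myo-inositol-3-phosphate synthase (MIPS), which turns glucose-6-phosphate into inositol phosphate, also the source of free inositol for membrane lipids, cell walls and the raffinose sugars. Kinases then add phosphates around the ring, and IPK1 adds the last one, at the position numbered C-2, to give phytate. ABC transporters of the multidrug resistance-associated protein (MRP) type are needed for phytate to accumulate in the seed, where it lies in protein storage vacuoles. In soybean, mutations in MIPS1, and mutations in both MRP genes together, are known to give seeds low in phytate.

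Messenger RNA was sequenced from the cultivar Williams 82, with 3 biological replicates at each of 6 stages. The seed stages were embryos from seeds 2.5 to 3.5 mm long (cotyledon stage), embryos from seeds 6 to 7 mm long (early maturation), embryos from seeds of 200 to 250 mg (mid maturation), embryos from fully yellow seeds of 230 to 500 mg (late maturation) and mature dry seed. The last stage was the seedling 8 days after sowing. All plants were greenhouse grown and carried no transgene or treatment in the labels. The labels say whole seedling, although the seedling columns are headed with the letters COT, and they do not say how many plants made up 1 replicate or whether dry seed kept its coat. The tissue labels were not checked against marker genes, because no identifier could be paired with a name. Library depth was 3572134 to 8776240 reads. Values are read counts scaled to library size with the trimmed mean of M-values (TMM) method, written CPM below, without correction for transcript length, so levels are compared between stages of 1 gene and not between genes. In these bulk samples fewer cells of a type and less RNA per cell cannot be told apart.

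The 5 genes did not all peak at the same stage. Below, a gene is called, or said to rise or fall, at a limma adjusted p under 0.05 (Benjamini-Hochberg over all genes tested) with a log2 difference of at least 1. The stage mean was highest at the cotyledon stage for Glyma.18G018600, in early maturation for MIPS1 and IPK1, in mid maturation for the MRP gene Glyma.03G167800 and in late maturation for the MRP gene Glyma.19G169000. Each differed among the 6 stages by the moderated F test of limma, with a log2 range of stage means between 2.34 for Glyma.18G018600 and 7.69 for MIPS1. As 94.3% of the 36872 genes tested did so too, this does not set them apart. With plain CPM, which divides by the library total in place of TMM scaling, Glyma.03G167800 also had its highest mean in late maturation (160 ± 19.5 in late and 135 ± 9.54 in mid maturation, SD, n = 3), and the other 4 peaks stayed at the same stage. With TMM scaling the highest stage overlapped with the next in level for every gene but MIPS1, so the order of such stages was not resolved. How many of all genes overlap in this way was not counted. With plain CPM the IPK1 libraries stood at 101.2 to 124.5 in early and 53.75 to 64.24 in mid maturation. Those of Glyma.19G169000 stood at 164.2 to 181.6 in late and 109 to 120.7 in mid maturation. These top stages were separate on that scale.

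**Figure D1:**
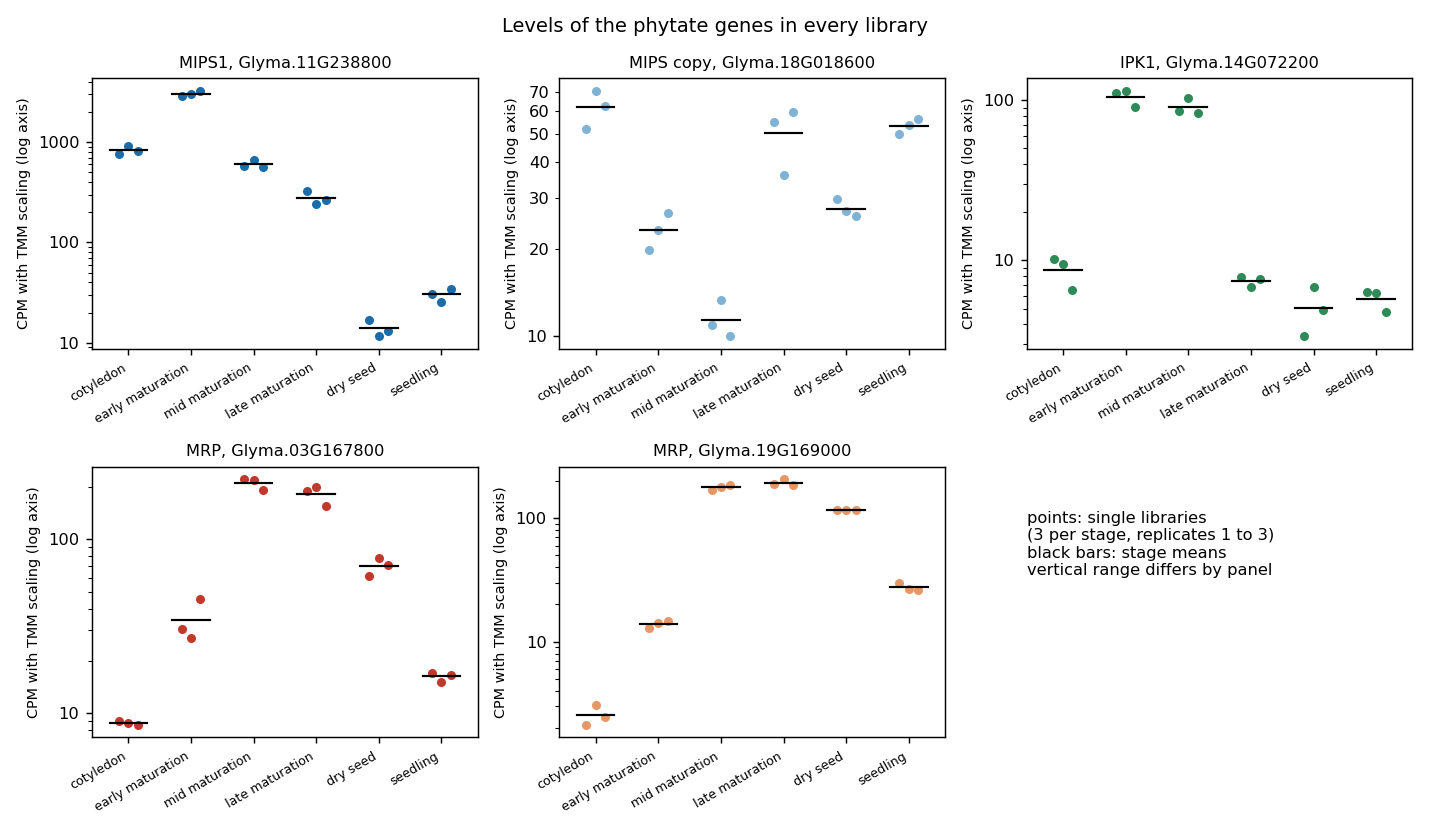
Level of each gene in CPM (log axis, range set per panel) in 3 libraries at each of 6 stages, with a black bar at the stage mean. MIPS1 stands between 11.6 and 17.05 in dry seed and between 2879 and 3263 in early maturation, while both MRP genes are highest in mid and late maturation.

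**Figure D2:**
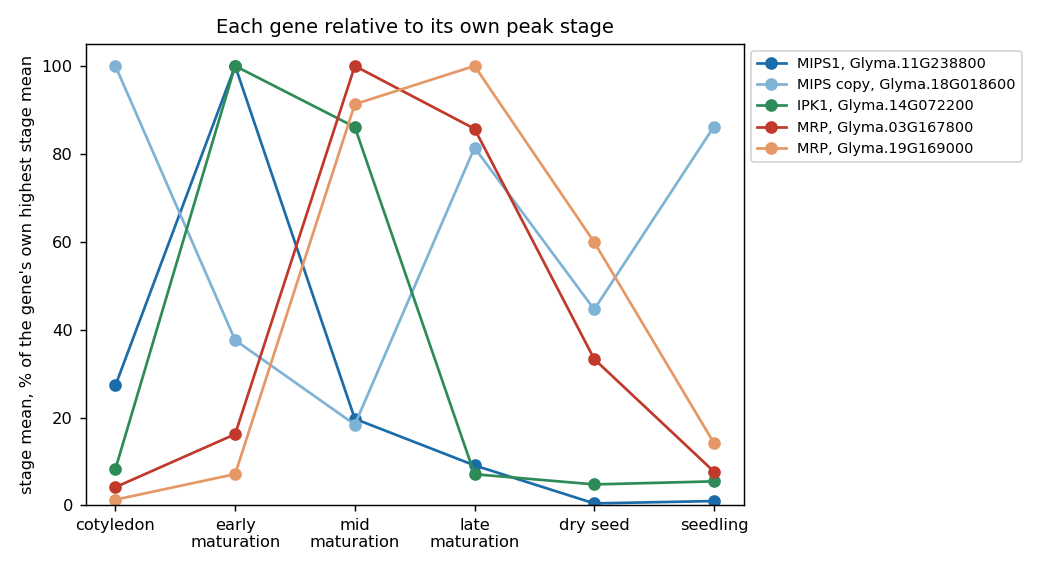
Stage mean of each gene as a percentage of its own highest stage mean, over the 6 stages. MIPS1 and IPK1 peak in early maturation, where the MRP genes stand at 16.2% and 7.12% of their own peaks, and Glyma.18G018600 is at 18.4% of its peak in mid maturation.

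MIPS1, which encodes the enzyme of the entry step, formed a single sharp peak. Its levels were 758, 924 and 819 CPM in the cotyledon libraries, 2879, 3027 and 3263 in early maturation and 577.5, 669 and 561 in mid maturation. Late maturation libraries gave 324, 244 and 267.5 CPM, dry seed libraries 17.05, 11.6 and 13.1 and seedlings 30.95, 25.6 and 34.4. The 6 stages did not overlap in any neighbouring pair when ordered by level, and dry seed was the lowest, at 0.455% of the early maturation mean. Even there the level rested on 44 to 66 reads per library.

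In early maturation MIPS1 rose over the cotyledon stage by 1.88 on the log2 scale (SE 0.148, limma adjusted p = 1.43e-09). It then fell in each of the remaining seed steps, with log2 differences of -2.34 in mid against early maturation (-3.12 with plain CPM) and -1.12 in late against mid maturation. The widest of its 5 steps between neighbouring stages came in dry seed against late maturation, where it fell by 4.23 (SE 0.148, limma adjusted p = 4.36e-14). Seedlings were above dry seed by 1.08, in a step where the median of all genes was 0.58. They were far below the cotyledon stage, with a log2 difference of -4.74. The call in seedlings was narrow, since it was lost without dry seed replicate 2 (0.96) or without seedling replicate 3 (0.98), with a pseudocount of 4 (0.94) and after upper-quartile scaling (0.63). The fall in late against mid maturation also stood near the limit, at -0.99 after upper-quartile scaling and at -0.65 with plain CPM.

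The chromosome 18 copy, Glyma.18G018600, followed another course. Its levels were 52.1, 70.7 and 62.8 CPM in the cotyledon libraries, 19.8, 23.2 and 26.7 in early maturation and 10.9, 13.3 and 9.98 in mid maturation. Late maturation libraries gave 55.05, 36.1 and 59.8 CPM, dry seed libraries 29.7, 27.2 and 25.95 and seedlings 49.99, 53.7 and 56.3. Cotyledon, seedling and late maturation libraries overlapped at the top of its order, dry seed and early maturation overlapped in the middle, and mid maturation stood alone at the bottom with 23 to 59 reads per library.

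Glyma.18G018600 fell by 1.37 on the log2 scale in early maturation against the cotyledon stage (SE 0.165, limma adjusted p = 6.22e-07), where MIPS1 rose. It rose by 2.03 in late against mid maturation (SE 0.165, limma adjusted p = 4.52e-10), where MIPS1 fell. The other neighbouring steps were not called, with log2 differences of -0.97 in mid against early maturation, -0.81 in dry seed against late maturation and 0.93 in seedlings against dry seed, each with a limma adjusted p of 0.000285 or less. The first of these passed the limit without early maturation replicate 1 or without mid maturation replicate 2 (-1.07 in both cases) and with plain CPM (-1.67), and the next without late maturation replicate 2 (-1.03). The step to seedlings passed it under median-of-ratios scaling (1.03), with DESeq2 (1.06) and with plain CPM (1.54), while upper-quartile scaling gave 0.47. With TMM scaling the median of all genes in that step was 0.58. Seedlings and the cotyledon stage were 53.3 ± 3.16 and 61.8 ± 9.34 CPM (SD, n = 3), and this difference was not called (-0.2, limma adjusted p = 0.273), with a sign that median-of-ratios scaling (0.04) and DESeq2 (0.03) turned.

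The balance between the MIPS genes shifted toward the chromosome 18 copy in the later stages. Glyma.18G018600 contributed 6.89% ± 0.396 (SD, n = 3) of the pair's reads in cotyledon libraries, 0.752% ± 0.0651 in early maturation, 1.85% ± 0.103 in mid maturation and 15.2% ± 2.75 in late maturation. Its share was 66.7% ± 3.27 in dry seed and 63.8% ± 3.36 in seedlings. Single libraries stood at 63.5%, 70.1% and 66.5% in dry seed and at 0.683%, 0.76% and 0.812% in early maturation. In dry seed replicate 2, which had the fewest reads of the pair (147), the 95% exact binomial interval was 62.0% to 77.3%, and in early maturation replicate 3, which had the most (30300), it was 0.714% to 0.919%. Such intervals cover counting error only. The share does not depend on scaling between libraries, but it counts reads without length correction, so it is not a ratio of molecules.

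Neighbouring stages did not overlap in this share except for seedlings and dry seed. A two-sided exact permutation test of 3 libraries against 3 cannot go below p = 0.1, and that value was reached in the 4 steps without overlap (0.143 after adjustment over the 10 tests of both gene pairs). Seedlings differed from dry seed by -2.85 percentage points (exact p = 0.3). The summed level of both genes was 41.5 ± 4.53 CPM in dry seed and 3080 ± 197 CPM in early maturation (SD, n = 3). How reads that match both copies were assigned is not given in the sources used here, so the level of Glyma.18G018600 in the stages where MIPS1 is abundant is uncertain.

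**Figure D3:**
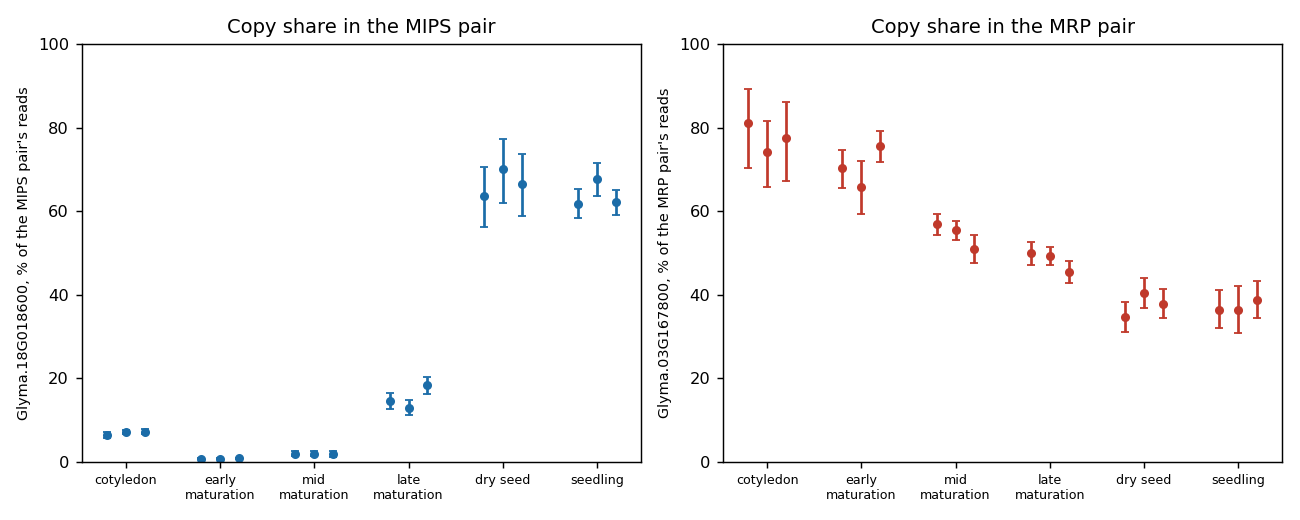
Percentage of a gene pair's reads that came from Glyma.18G018600 (MIPS pair, left) and from Glyma.03G167800 (MRP pair, right), 1 point per library with its 95% exact binomial interval, 3 libraries per stage. The MIPS share is above 60% in every dry seed and seedling library and under 1% in every early maturation library, and the mean MRP share is 37.2% in seedlings and 77.6% at the cotyledon stage.

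IPK1 (Glyma.14G072200), which encodes the kinase of the final step, was high in early and mid maturation and low at the other 4 stages. Its levels were 10.2, 9.54 and 6.49 CPM in the cotyledon libraries, 111.3, 114.7 and 90.1 in early maturation and 85.7, 103 and 83.3 in mid maturation. Late maturation libraries gave 7.9, 6.85 and 7.69 CPM, dry seed libraries 3.36, 6.86 and 4.91 and seedlings 6.31, 6.23 and 4.74. Early and mid maturation overlapped, and so did the low stages next to each other in level, except late maturation and seedlings. The lowest levels rested on few reads, 13 to 26 per dry seed library.

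IPK1 rose by a log2 difference of 3.46 in early maturation over the cotyledon stage (SE 0.19, limma adjusted p = 5.13e-12). It fell by 3.43 in late against mid maturation (SE 0.19, limma adjusted p = 8.64e-13). Mid maturation was not called against early maturation (-0.21, limma adjusted p = 0.368), although plain CPM gave -0.98, at 57.8 ± 5.61 in mid and 115 ± 12.2 in early maturation (SD, n = 3). Dry seed against late maturation (-0.53) and seedlings against dry seed (0.19) were not called either, and upper-quartile scaling (-0.2) and leaving out dry seed replicate 1 (-0.02) turned the sign of that last value. The mid maturation mean was 86.1% of the early maturation mean for IPK1 and 19.7% for MIPS1, a difference between genes that was not tested.

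Both MRP genes, which encode the transporters, reached their plateau later. Glyma.03G167800 had 9.03, 8.8 and 8.56 CPM in the cotyledon libraries, 30.4, 26.98 and 45.3 in early maturation and 221.4, 220.5 and 193.6 in mid maturation. Late maturation libraries gave 189.1, 199.6 and 155.6 CPM, dry seed libraries 62.0, 78.6 and 70.8 and seedlings 17.1, 15.2 and 16.6. Mid and late maturation overlapped at the top, and all other stages next to each other in level were separate. Early maturation replicate 3 was the highest of its stage, at 45.3 CPM.

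Glyma.19G169000 had 2.11, 3.06 and 2.46 CPM in the cotyledon libraries, 12.9, 14.03 and 14.7 in early maturation and 168.1, 177.6 and 187.1 in mid maturation. Late maturation libraries gave 190.2, 206.5 and 186.8 CPM, dry seed libraries 117.3, 116.1 and 116.4 and seedlings 29.8, 26.7 and 26.2. Again only mid and late maturation overlapped. The cotyledon level, from 14 to 33 reads per library, was 1.31% of the late maturation mean.

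Both MRP genes rose in early maturation over the cotyledon stage, Glyma.03G167800 by a log2 difference of 1.81 (SE 0.15) and Glyma.19G169000 by 2.07 (SE 0.111). Both rose again in mid against early maturation, by 2.63 (SE 0.15, limma adjusted p = 7.85e-12) and by 3.59 (SE 0.111, limma adjusted p = 1.04e-15). With plain CPM these rises into mid maturation were 1.86 and 2.83. Without early maturation replicate 3 the rises of Glyma.03G167800 were 1.6 and 2.84. Late against mid maturation was called for neither, at -0.23 for Glyma.03G167800, a value that plain CPM turned to 0.24, and at 0.13 for Glyma.19G169000. Dry seed was lower than late maturation by a called log2 difference of -1.35 for Glyma.03G167800, and by -0.73 for Glyma.19G169000, which was not called. In seedlings against dry seed both fell by 2.04 on the log2 scale, and plain CPM gave -1.44 for Glyma.03G167800 and -1.43 for Glyma.19G169000.

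Seedlings against the cotyledon stage gave different values for the MRP genes. Glyma.19G169000 was at 27.6 ± 1.95 CPM in seedlings and 2.54 ± 0.48 at the cotyledon stage (SD, n = 3), a rise by 3.02 (SE 0.111, limma adjusted p = 5.79e-16). Glyma.03G167800 was at 16.3 ± 0.975 CPM in seedlings and 8.8 ± 0.233 at the cotyledon stage, with a log2 difference of 0.82 that was not called, but passed the limit under median-of-ratios scaling (1.05) and with DESeq2 (1.14).

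The share of Glyma.03G167800 in the reads of the MRP pair was 77.6% ± 3.43 (SD, n = 3) in cotyledon libraries, 70.5% ± 4.88 in early maturation, 54.4% ± 3.12 in mid maturation and 48.2% ± 2.37 in late maturation. It was 37.6% ± 2.91 in dry seed and 37.2% ± 1.36 in seedlings. Mid against early maturation, late against mid maturation and dry seed against late maturation did not overlap (exact permutation p = 0.1 each, the smallest possible, and 0.143 adjusted). Early maturation overlapped with the cotyledon stage (exact p = 0.2) and seedlings with dry seed (exact p = 1). The mean share differed by -16.2 percentage points in mid against early maturation and by -10.6 in dry seed against late maturation. The MIPS share differed by 51.5 points in that last step. Reads that match both MRP genes carry the same uncertainty as in the MIPS pair.

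Set beside all genes tested, the calls of the 5 were spread over both directions in most steps. In early maturation against the cotyledon stage 4 of the 5 rose, against 8.53% of all genes, and 1 fell, against 10.2%. In mid against early maturation 2 rose (11.3% of all genes) and 1 fell (14.7%), while with plain CPM 2 rose (4.47%) and 2 fell (32.3%). In late against mid maturation 1 rose (16.8% of all genes) and 2 fell (23.6%).

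In dry seed against late maturation 0 rose by limma (7.84% of all genes) and 2 fell (14.5%). A positive log2 difference was seen in 0 of the 5 with limma, edgeR or DESeq2, but 3 of the 5 were not called. The median of all genes was also below zero in this step (-0.1 by limma), and the share of all genes with a positive difference was not counted. In seedlings against dry seed 1 rose (41.8% of all genes) and 2 fell (19.8%), and with plain CPM 2 rose (50.5%) and 2 fell (12.8%). Late maturation replicate 1 and dry seed replicate 1 stood apart from the others of their stages (chi-square per degree of freedom 14.6 and 15.4 in late maturation, against 2.22 for the remaining pair, and 8.68 and 9.86 in dry seed, against 2.19). Dry seed against late maturation had 2 genes called lower without the one or the other (14% and 14.2% of all genes). MIPS1 was then at -4.12 and -4.38 and Glyma.03G167800 at -1.32 and -1.26. Early maturation replicate 3 also stood apart (8.5 and 5.43, against 2.65 for the remaining pair). Without it 4 genes were still higher (9.48% of all genes) and 1 lower (11.4%) in early maturation against the cotyledon stage. In seedlings against the cotyledon stage 1 rose (28.4% of all genes) and 1 fell (22.7%). These counts concern 5 genes, of which 4 belong to gene pairs, and neighbouring comparisons share libraries.

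The mean of late maturation and dry seed was also set against the mean of the cotyledon stage, early and mid maturation. Both MRP genes were called higher (18.7% of all genes were), and MIPS1 and IPK1 were called lower (30.3% of all genes were). The log2 differences were 2.85 for Glyma.19G169000, 1.45 for Glyma.03G167800, -4.17 for MIPS1 and -2.68 for IPK1, with SEs of 0.0714 to 0.122. Glyma.18G018600 was not called, at 0.52. This comparison averages unlike stages. The MRP genes were low at the cotyledon stage (8.8 CPM for Glyma.03G167800 and 2.54 for Glyma.19G169000) and in early maturation (34.2 and 13.9). Neither rose in late against mid maturation or in dry seed against late maturation. IPK1 stood at 8.75 CPM at the cotyledon stage and 7.48 in late maturation.

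**Figure D4:**
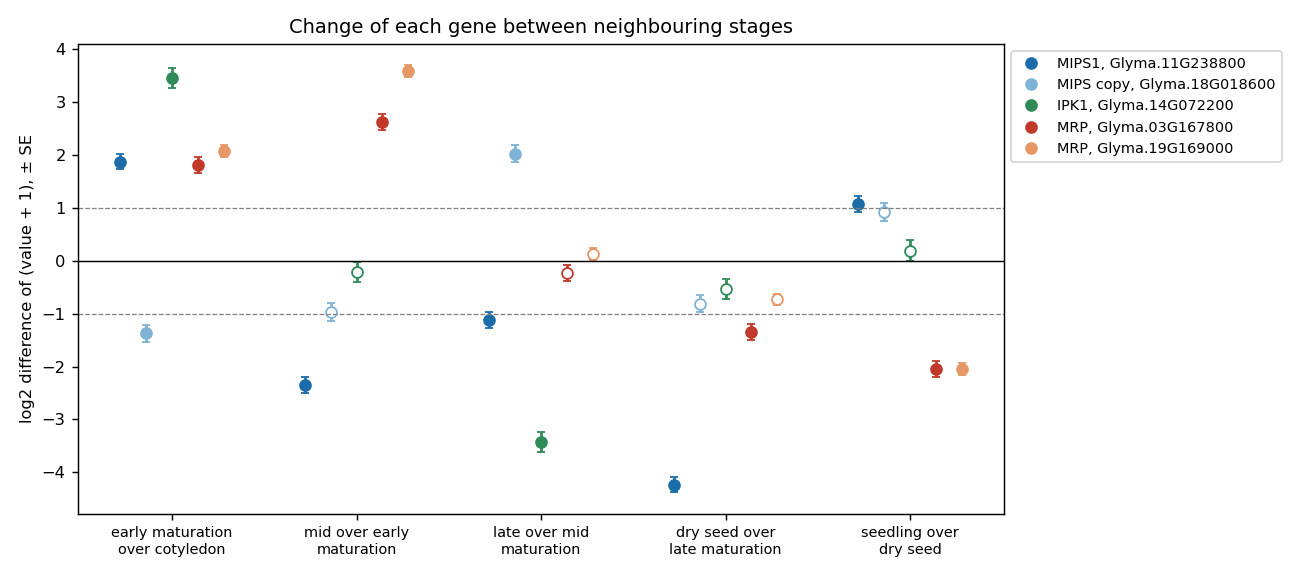
Log2 difference of (CPM + 1) with its standard error for each of the 5 genes in the 5 comparisons of neighbouring stages, later over earlier. Filled points were called, open points were not, and dashed lines mark the limit of 1. In early maturation over cotyledon 4 genes are above 1 and Glyma.18G018600 is at -1.37, and in dry seed over late maturation MIPS1 is lowest at -4.23.

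The sequence of calls over the 5 neighbouring steps was held by 26 to 211 genes, depending on the gene. The sequence of MIPS1, a rise followed by 3 falls and a rise, occurred in 47 of 36872 genes (0.127%). Glyma.19G169000, with rises in the opening pair of steps and a fall in seedlings, had a sequence found in 45 genes (0.122%), and Glyma.03G167800, which also fell in dry seed, one found in 26 (0.0705%). The sequence of IPK1, a rise into early and a fall into late maturation, was found in 211 genes (0.572%), and that of Glyma.18G018600 in 78 (0.212%). These sequences and counts hold for the limma settings used here and depend on the limit of 1. MIPS1 lost its call in seedlings with pseudocount 4 (0.94) and upper-quartile scaling (0.63). Glyma.18G018600 gained a call in mid maturation with plain CPM (-1.67). In all 230 sequences occurred, with a median of 21 genes each. The most common were no call in any step (15.1% of genes) and a rise in seedlings alone (14.3%), and 31 to 106 sequences were more common than those of the 5 genes.

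Among themselves the genes were alike only in part. Over the 6 stage means of log2(CPM + 1), Pearson's r was 0.92 between the MRP genes, 0.75 between MIPS1 and IPK1 and -0.23 between MIPS1 and its chromosome 18 copy. It was -0.77 between Glyma.18G018600 and IPK1, and 0.01 between IPK1 and Glyma.19G169000. These are descriptions over 6 points that share their libraries.

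For each gene the pair of identifiers with the most similar stage profile was taken from 24920 others with a stage mean of at least 10 CPM. For MIPS1 they were Glyma.10G264800 (r = 0.9941 over 6 stage means) and Glyma.19G131700 (0.9931), both with a far smaller range. Over the 18 libraries r was 0.91 and 0.942, ranks 284 and 71, so this choice rests on the stage means. Glyma.10G264800 was at 5.86 ± 0.613 CPM in dry seed and 13.3 ± 2.53 in early maturation. For Glyma.18G018600 they were Glyma.11G084100 (0.9826) and Glyma.10G046400 (0.9761). With 6 genes at r of 0.95 or more (0.0241% of those compared), the profile of Glyma.18G018600 had the fewest close matches. For IPK1 they were Glyma.01G233700 (0.9951) and Glyma.11G234800 (0.995), with r of 0.926 and 0.986 and Spearman's rho of only 0.777 and 0.794 over the 18 libraries (ranks 1128 and 908 by rho). Glyma.11G234800 stood at 11.6 ± 0.884 CPM in early and 9.76 ± 1.29 in mid maturation, and at no more than 0.205 CPM on average at any other stage.

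For the MRP genes, Glyma.03G167800 was closest to Glyma.19G095900 (0.9951) and Glyma.17G074500 (0.9911). Glyma.19G169000 was closest to Glyma.04G083900 (0.9929) and Glyma.10G214200 (0.9903). With r of 0.95 or more there were 155 genes for MIPS1 (0.622% of those compared) and 82 for IPK1 (0.329%). There were 53 for Glyma.03G167800 (0.213%) and 50 for Glyma.19G169000 (0.201%). Each r rests on only 6 points, and the named pair is the top of a longer list. Over the 18 libraries the matches of the MRP genes and of Glyma.18G018600 had r of 0.916 to 0.986 and ranked 1 to 14. None of these identifiers is paired with a name.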

How the data were processed

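The authors deposited 1 file per library that gives a normalized signal for 51546 identifiers. Bowtie 0.12.7 and edgeR 3.0.8 are named, with no role, per the submitters' processing notes. The genome build, annotation, strand and treatment of reads that match several genes were not given in the sources used here. After division by the value of 1 read, 927825 of 927828 values lay within 0.05 of a whole number, and the steps matched TMM-scaled CPM recomputed from those reads (largest relative difference 5.48e-09). The recovered reads served for depth, copy shares and count models.

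The test was limma 3.58.1 (R 4.3.3) applied two-sided to log2(value + 1) in 1 model of all 18 libraries with a trend of variance on mean. It took the 36872 genes that reached a value of 1 in 3 or more libraries, with Benjamini-Hochberg adjustment over all of them. Log2 differences on this scale understate changes of low values. The procedure was run on simulated counts in which a small set of genes changed in a single stage and all genes had the same spread. That setting lacks the broad stage differences and uneven replicates of these data, so it cannot show how the procedure performs on them. The 5 genes and the comparisons were chosen with earlier results of these data known. Named genes are the 5 members and, for each, the 2 genes with the highest r.

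Lists of other phytate pathway genes and tissue markers were set by description, and were not run because 0 of 51546 identifiers matched the RefSeq table (Glycine max v4.0, 59048 genes). No sequence was used for the same reason. Alternatives covered the pseudocount, filter, scaling, replicate block, libraries in the fit, trend, limit, each library left out, edgeR 4.0.16 quasi-likelihood and DESeq2 1.42.0. Replicates differed by more than counting noise in all 18 pairs within stages (chi-square divided by degrees of freedom of 1.56 to 15.4).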

Additional observations from a re-analysis of the deposited data

How the results depend on the processing

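Of 1085 log2 differences of the 5 genes recomputed under 31 settings, 1062 kept their side of the threshold, 6 lost the call and 17 gained it. Among called values 0 changed sign, and 5 uncalled values did, in 3 comparisons (IPK1 in seedlings against dry seed, Glyma.18G018600 in seedlings against the cotyledon stage and Glyma.03G167800 in late against mid maturation). In 18 of the 31 a single library was left out, and comparisons without its stage could barely move. For MIPS1 (Glyma.11G238800) in seedlings against dry seed, pseudocount 4 gave 0.94 and upper-quartile scaling 0.63. With these settings 0 of the 5 genes were called higher, against 26.3% and 36.9% of all genes. Leaving out 1 library gave 0.96 to 1.22 (0 to 1 genes, against 41.4% to 42% of all genes). In late against mid maturation MIPS1 was -0.99 with upper-quartile scaling and -0.65 with plain CPM. Each left 1 of the 5 genes called lower, against 22.2% and 16.5% of all genes. Glyma.18G018600 in seedlings against dry seed was 1.03 with median-of-ratios scaling, 1.54 with plain CPM and 1.06 with DESeq2. In each 2 of the 5 genes were higher, against 43.5%, 50.5% and 47.7% of all genes. In mid against early maturation Glyma.18G018600 was -1.67 with plain CPM (2 lower, against 32.3% of all genes). With 1 library left out it was -1.07 to -0.86 (1 to 2 lower, against 13.9% to 15.8% of all genes), and in dry seed against late maturation -1.03 to -0.68. Glyma.03G167800 in seedlings against the cotyledon stage was 1.05 with median-of-ratios scaling and 1.14 with DESeq2 (2 higher, against 31.4% and 34.4% of all genes). The causes were not tested.

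With no limit on the log2 difference, a looser criterion by construction, the calls added were Glyma.18G018600 at -0.97 in mid maturation (2 lower), at -0.81 in dry seed, at 0.93 in seedlings against dry seed (2 higher) and at 0.52 in late maturation and dry seed against the earlier stages. Also added were IPK1 at -0.53 and Glyma.19G169000 at -0.73 in dry seed (5 lower), and IPK1 at -0.52 and Glyma.03G167800 at 0.82 in seedlings against the cotyledon stage (2 lower and 2 higher). Of all genes, 30.9% were then lower in mid against early maturation and 29.6% lower in dry seed against late maturation. In seedlings 53.1% were higher than in dry seed, and 37.6% were lower and 38.4% higher than at the cotyledon stage.

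The share of Glyma.03G167800 in the MRP pair, seedlings minus dry seed, ran from -1.95 to 0.954 percentage points with 1 library left out and changed sign without dry seed replicate 2 (0.954). Shares from the deposited values equal those from reads by construction and test nothing. Plain CPM moved the median of all genes by -0.48 in mid against early maturation and by 0.45 in seedlings against dry seed, and upper-quartile scaling moved that same comparison by -0.29. The percentage of all genes called moved by over 1.5 times in 25 of 434 recomputed values, 11 of them with no limit, 9 with pseudocount 4, 4 with plain CPM (16.0% lower in early maturation, 4.47% higher and 32.3% lower in mid maturation, 12.8% lower in seedlings against dry seed) and 1 with DESeq2.

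Libraries with the same replicate number did not deviate together (r above 0.1 in 2 of 15 pairs, range -0.154 to 0.109). With the replicate block, 4 genes were called higher (8.53% of all genes) and 1 lower (10.2%) in early maturation against the cotyledon stage. No call of the 5 genes changed. The 3 libraries a stage and 13 to 33 reads for the lowest levels of IPK1 and Glyma.19G169000 limit the precision there.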
